A study of Homo sapiens with 6 samples.

Results

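The genes examined here were 50 genes of DNA replication and mitosis, measured in 6 RNA-seq libraries of 4 cell lines from atypical teratoid rhabdoid tumor (AT/RT), a malignant embryonal brain tumor of young children. Members were taken by gene symbol from the transcript tables, and the abundance of a gene was the sum over its transcripts. All 50 symbols were found, each under 1 Ensembl gene identifier, among 36532 genes in the tables. By role, 24 members act in replication and 26 in mitosis.

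Total RNA of the lines was sequenced as single libraries for CHLA 02 and for CHLA 05, while 2 libraries labelled as technical replicates were made of CHLA 04 and likewise of CHLA 06. The tumors of this kind are defined by loss of SMARCB1, a subunit of the SWI/SNF chromatin remodeling complex. All lines were untreated and grew in the same medium, DMEM:F12 with EGF and bFGF at 20 ng/mL each and B-27 at 2%, and the libraries analysed here include no normal tissue to compare them with. Each line stood for 1 biological sample, so lines were compared without a test. The unit was TPM, which divides reads by transcript length and scales the transcripts of each library to the same total.

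Cells copy their genome in S phase and divide it in mitosis, and the genes for both tasks are transcribed mainly in cycling cells. CDC6 and CDT1 load the MCM2 to MCM7 ring at origins, CDC45 and the GINS proteins turn the ring into an active helicase, and polymerases then copy both strands. E2F factors switch on most of these genes at the end of G1. Genes of mitosis come on later, in G2, when the MuvB complex with B-MYB and FOXM1 activates them through a promoter element called CHR, at which the DREAM complex holds them silent in resting cells. In bulk RNA, fewer cycling cells and less RNA of a gene per cycling cell cannot be told apart.

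Promoters are shown because many members of each group share an element. Promoter windows, from 250 bases before to 50 after the start site, were taken from RefSeq (GRCh38.p14), and 43 of the 50 members had one. AURKA, CCNE2, MCM4, MCM5, TPX2, TTK and UBE2C had none. Only the first listed window of each gene was searched, of 35116 windows in all, so further start sites of a gene were not covered. Windows were searched on both strands for CHR (TTTGAA), for CCAAT and for the E2F element (TTNNCGC, where each N was a C or a G). Matches on both strands can overlap each other, and an E2F match with 2 G letters at N that follows an A also holds CCAAT in reverse. An E2F match was present in 16 of 21 replication members (76.2%) and in 6 of 22 mitosis members (27.3%), against 13.1% of 27305 genes with a window. CHR was present in 14 of 22 mitosis members (63.6%) and in 1 of 21 replication members (4.76%), RRM1, against 15.4% of all genes. CCAAT was present in 13 replication members (61.9%) and in 17 mitosis members (77.3%), against 35.7% of all genes. The median GC content was 67.7% in replication members, 61.2% in mitosis members and 58.3% in all genes. A match describes the letters of the window and is no evidence that a factor binds there.

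The E2F matches below stand upstream of the RefSeq start sites of genes of E2F control, the fork and the helicase. The match is in capitals, and each line is written along the strand of its gene. E2F1 is itself a target of E2F factors in the textbook circuit. These are the windows of E2F1 (chr20:33686387-33686415, minus strand), PCNA (chr20:5126664-5126692, minus strand), POLA1 (chrX:24693787-24693815, plus strand) and MCM6 (chr2:135876515-135876543, minus strand). The matches of PCNA and POLA1 read the element on the opposite strand. The matches begin 19, 59, 120 and 89 bases before the start site, in that order. The line of E2F1 overlaps the span of its gene in Ensembl release 82, the annotation of the TPM values, and the other lines do not.
E2F1: gcaaaaaggatTTGGCGCgtaaaagtggc
PCNA: cagcgtcagggGCGGGAAaaggcgtgcgt
POLA1: aacgcgcgtccGCGGGAAggccgggggcg
MCM6: attggtcaggtTTGGCGCgaaatctccag

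The CHR matches below stand upstream of the RefSeq start sites of mitosis genes, with TTTGAA in capitals. They are from MKI67 (chr10:128126436-128126463, minus strand), CDC20 (chr1:43358905-43358932, plus strand), TOP2A (chr17:40418074-40418101, minus strand) and PLK1 (chr16:23678849-23678876, plus strand). They begin 29, 65, 194 and 29 bases before the start site. The line of PLK1 overlaps the span of its gene in Ensembl release 82, and the other lines do not. Each match is flanked by 11 bases, and the lines of CDC20 and MKI67 also hold a CCAAT box. In MKI67 that box is on the opposite strand and overlaps the CHR match.
MKI67: cttcgttttcgTTTGAAttgggcgggcg
CDC20: gacggttggatTTTGAAggagccaatag
TOP2A: gagtggtgcctTTTGAAgcctctctagt
PLK1: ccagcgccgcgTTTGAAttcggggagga

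Depth was 10265899 to 20520229 reads on transcripts per library, lowest in CHLA 04 replicate 1, and 1 read on a transcript of 1000 bases was worth 0.117 to 0.236 TPM. The members held 61142 to 166115 reads per library. Mitochondrial genes took 1.83% to 8.67% of TPM. SMARCB1, whose loss defines the tumor, still had transcripts in all 6 libraries, at 13.5 to 26.2 TPM. The paper describes all 4 lines as lacking SMARCB1 expression, and these libraries do not measure protein. Among other markers of the tumor, VIM was at 4629 to 19464 TPM, NES was at 5.21 to 27.6 TPM and SOX2 was at 0 to 4.03 TPM. Of markers of other cells, the leukocyte list summed to 0.796 to 22.9 TPM with CD3E at 0 throughout, the endothelial list to 0.181 to 4.06 TPM, and the epithelial list to 0 to 12.7 TPM. The 5 fibroblast markers summed to 13.3 to 42.2 TPM in CHLA 04 and CHLA 05 and to 418 to 649 TPM in CHLA 02 and CHLA 06, where COL1A1 alone stood at 387 to 600.3 TPM. In those 3 libraries DCN was at 20.1 to 42.9 TPM, LUM at or under 1.67 TPM and COL1A2 at or under 1.36 TPM, and PDGFRB was lower there than in CHLA 04 and CHLA 05.

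The members were well expressed in all lines. Their median was 53.7 TPM in CHLA 02, 84.0 and 129.9 TPM in CHLA 04 replicates 1 and 2, 94.7 TPM in CHLA 05, and 42.6 and 73.1 TPM in CHLA 06 replicates 1 and 2. The median of the 14827 genes with a mean of at least 1 TPM over the 4 lines, which served as background, stayed between 21.5 and 26.1 TPM. All 50 members passed that minimum. Together the members took 0.326% of reads in CHLA 06 replicate 1 and 0.957% in CHLA 04 replicate 2, the lowest and the highest library. TYMS, thymidylate synthase, had the highest mean over the lines with 339 TPM, and FEN1, the flap endonuclease of Okazaki fragments, the lowest with 8.21 TPM.

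The order of the lines was shared by most members. CHLA 04 was the highest line in 26 members, CHLA 05 in 23 and CHLA 06 in 1, CCNE1, the gene of cyclin E1, beside 35.1%, 30.1% and 23.4% of background genes. CHLA 02 was the lowest line in 26 members and CHLA 06 in 24, beside 16.0% and 38.6% of background genes. No member was highest in CHLA 02 (background 11.3%), and none was lowest in CHLA 04 or CHLA 05 (background 25.7% and 18.5%). By library, 33 members were highest in CHLA 04 replicate 2 and 43 were lowest in CHLA 06 replicate 1, beside 14.9% and 24.2% of background genes. CHLA 05 was the highest library for 10 members (background 23.2%) and CHLA 02 the lowest for 3 (background 9.15%). These positions describe single libraries, and neighbours in the order are set against the replicate spread below.

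**Figure D1:**
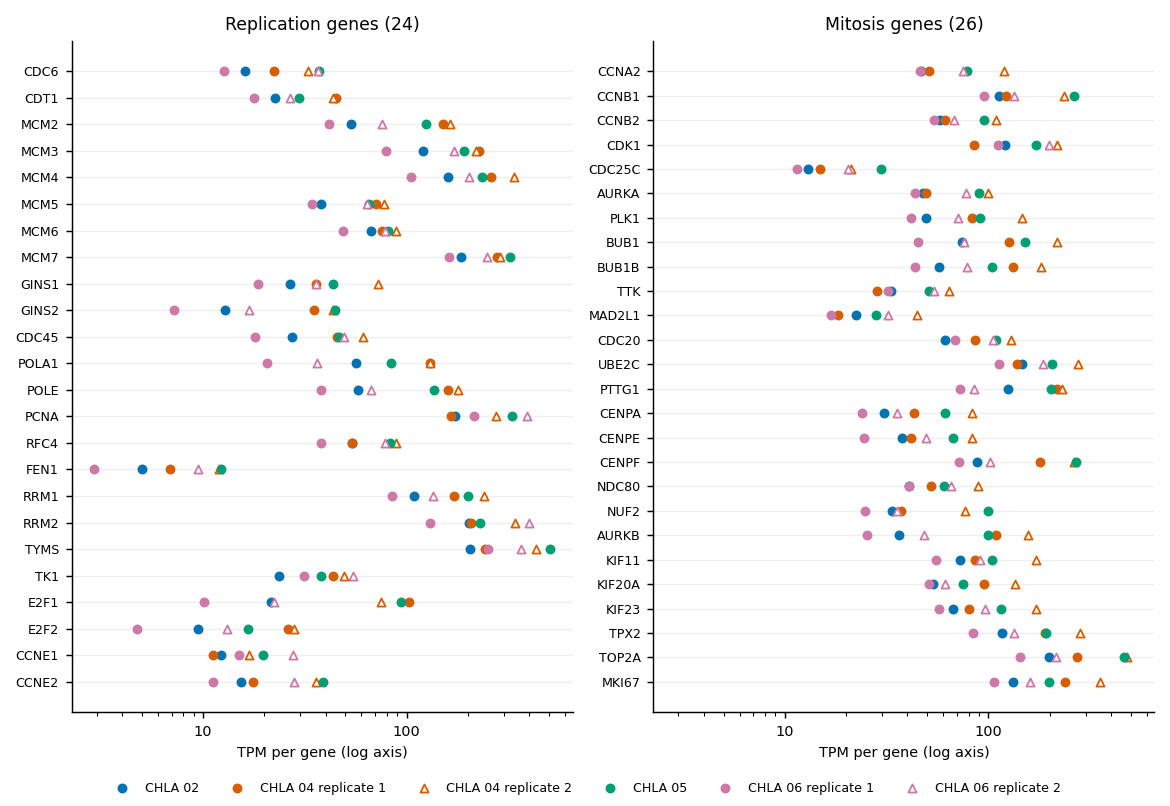
TPM of each of the 50 members on a log axis, with replication genes on the left and mitosis genes on the right. Filled circles are single libraries or replicate 1 and open triangles are replicate 2, coloured by cell line. For most genes the triangle lies to the right of the circle of the same colour, and 43 members have their lowest value in CHLA 06 replicate 1.

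Much of the variation of these genes lay between technical replicates of the same line. Differences were taken on the scale of log2(TPM + 2), which understates changes of low genes. In CHLA 06, replicate 2 was above replicate 1 in 50 of 50 members, against 51.2% of background genes. The median difference of the members was 0.76, and the median of all genes was 0.01 with an SD of 0.30. In CHLA 04, replicate 2 was above replicate 1 in 47 of 50 members, against 45.5% of background genes, with a median of 0.58 for the members and of -0.03 for all genes (SD 0.48). The median member stood at the percentile 97.9 of all genes in CHLA 06 and at 91.6 in CHLA 04.

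Both parts of the cell cycle program differed between replicates, but the part with the wider gap was not the same in CHLA 04 and CHLA 06. In CHLA 04 the mitosis genes were farther apart, with a median of 0.81 over 26 genes and of 0.33 over the 24 replication genes. The 5 members past 2-fold, against 1.33% of background genes in that direction, were CDK1, MAD2L1, CCNA2, TTK and KIF23, all of mitosis. CDK1, the kinase that drives entry into mitosis, was at 85.2 TPM in replicate 1 and at 218 TPM in replicate 2. In CHLA 06 the replication genes were somewhat farther apart, with a median of 0.87 against 0.69 for mitosis. All 24 replication and all 26 mitosis genes were higher in replicate 2 of that line. The 10 members past 2-fold, against 0.796% of background genes in that direction, were RRM2, CDC6, CDC45, FEN1, CCNE2, E2F2, MCM3, GINS2, RFC4 and E2F1, all of replication. RRM2, the small subunit of ribonucleotide reductase that S phase cells make, was at 129.9 TPM in replicate 1 and at 400.5 TPM in replicate 2. No member was past 2-fold in the other direction in either line, against 2.93% of background genes in CHLA 04 and 0.236% in CHLA 06.

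Counting error was small beside these gaps. Wilson intervals at the 95% level from the recovered reads, which cover counting error only, were set against each other. The interval of replicate 2 lay above that of replicate 1 in 49 members in CHLA 06, against 19.6% of background genes, with PTTG1 the exception. In CHLA 04 this held for 41 members, against 23.7% of background genes, 16 of replication and 25 of mitosis. The reverse held for no member in CHLA 06 (background 17.2%) and for 1 in CHLA 04 (background 27.2%), E2F1, the activator of the G1 to S transition, which stood at 102 TPM in replicate 1 and at 74.6 TPM in replicate 2. The median difference of the members stayed between 0.58 and 0.75 in CHLA 04 and between 0.72 and 0.82 in CHLA 06 with another pseudocount, other scalings, TPM rescaled without mitochondrial genes or the most abundant transcript alone, which gave the upper value in both lines. All of these alternatives were chosen after seeing the data.

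**Figure D2:**
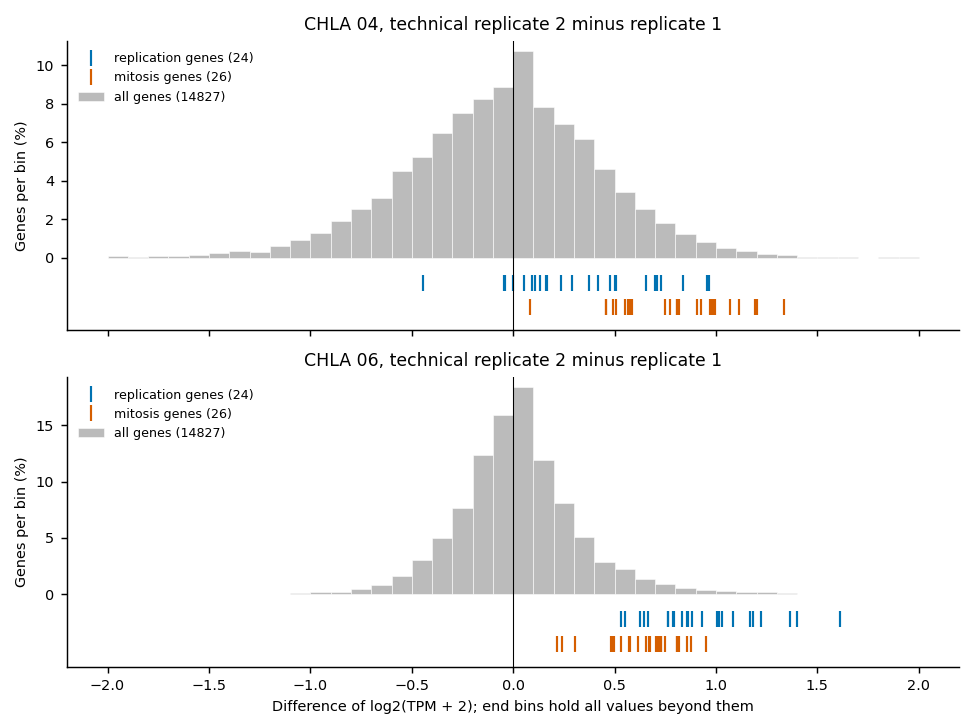
Difference of log2(TPM + 2) between technical replicates 2 and 1 of CHLA 04 (top) and CHLA 06 (bottom). Grey bars give the percentage of 14827 background genes per bin of 0.1, and ticks below them mark the replication and mitosis members. Members lie to the right of the bulk of genes, mitosis genes farthest in CHLA 04 with a median of 0.81 and replication genes farthest in CHLA 06 with a median of 0.87.

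Members grouped by the promoter elements shown above split in the same way. In CHLA 04, the 17 members with E2F and no CHR match had a median replicate difference of 0.23, and the 10 with CHR and no E2F match one of 0.78. In CHLA 06 the medians were 0.83 and 0.64. The 5 members with both had medians of 0.99 in CHLA 04 and 0.65 in CHLA 06, and the 11 with neither had 0.51 and 0.79. The motif groups largely repeat the replication and mitosis groups, so these values are no separate evidence.

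Other genes that differed between the replicates were noted after their values had been seen. In CHLA 04, the immediate early genes FOS, FOSB and EGR1 were at 128, 56.5 and 61.3 TPM in replicate 1 and at 5.46, 3.92 and 11.2 TPM in replicate 2. ETV4 and ETV5, transcription factors known as targets of ERK signaling, stood at 10.7 and 34.6 TPM in replicate 1 and at 55.7 and 126 TPM in replicate 2. In CHLA 06, FOS was at 63.8 and 65.3 TPM, while TIMP1, an inhibitor of metalloproteases, was at 593 and 1728 TPM. Depth was 10265899 and 17360741 reads in the CHLA 04 replicates and 18765484 and 20520229 reads in those of CHLA 06. Mitochondrial genes took 1.83% and 3.27% of TPM in CHLA 04 and 6.92% and 8.67% in CHLA 06. The part of these genes and of depth in the differences of the members was not tested, and the sources used here do not say whether the replicates began from the same culture or the same RNA.

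Between lines, differences were taken between means of log2(TPM + 2), and a log2 difference of 1 or more in size was counted as past 2-fold. The 6 comparisons share lines, so they are not independent. CHLA 06 against CHLA 02 had no member past 2-fold in either direction (background 2.12% higher and 8.07% lower), 26 of 50 were above 0 (background 45.0%), and the median member differed by 0.03. That value joined opposite ones, since replicate 1 of CHLA 06 alone was below CHLA 02 in 45 of 50 members with a median of -0.35 and replicate 2 alone was above it in 48 with a median of 0.41. Background genes were above CHLA 02 in 43.1% and 47.0% of cases, respectively. With replicate 1 alone, 1 member, POLA1, was past 2-fold lower (background 8.57%) and none higher (background 2.83%), and with replicate 2 alone 4 were past 2-fold higher (background 1.94%) and none lower (background 7.97%). In 47 of 50 members the gap between the CHLA 06 replicates was wider than the gap between the means of the lines, against 35.3% of background genes. The order of CHLA 02 and CHLA 06 therefore did not differ beyond the replicate spread for these members, with POLA1, TYMS and PTTG1 the exceptions.

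CHLA 04 and CHLA 05 did not separate either. None of the members was past 2-fold between them (background 7.43% higher and 10.3% lower in CHLA 04), and the median difference was 0.01. The gap between the CHLA 04 replicates was wider than that between the lines in 37 members, against 39.9% of background genes. NUF2, a kinetochore protein, was the member nearest the threshold with a difference of -0.87. With replicate 1 of CHLA 04 alone, 4 members were past 2-fold lower than in CHLA 05 (background 12.0%).

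CHLA 04 and CHLA 05 stood above CHLA 02 and CHLA 06 in most members. Against CHLA 02, the mean of the CHLA 04 replicates was higher in 50 of 50 members (background 57.6%), with a median of 0.82 beside 0.12 for all genes. Of these, 13 were past 2-fold higher (background 8.46%) and none past 2-fold lower (background 9.58%). The gap between the CHLA 04 replicates was wider than the gap between the lines in 21 members, against 37.2% of background genes. The 13 became 9 with replicate 1 alone and 31 with replicate 2 alone (background 12.4% and 8.05%). With replicate 1 alone, 43 members were higher than in CHLA 02, with a median of 0.46 beside 0.13 for all genes. That median was 0.67 for replication and 0.30 for mitosis genes. With replicate 2 alone, all 50 were higher, with a median of 1.09 beside 0.10 for all genes. CHLA 05 was higher than CHLA 02 in 50 of 50 members as well (background 56.1%), with a median of 0.76 beside 0.09 for all genes, and 15 were past 2-fold (background 11.2%), none lower (background 9.87%). With 1 library in each of these lines, the comparison of CHLA 05 with CHLA 02 has no replicate check.

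CHLA 06 was lower than CHLA 04 in 47 of 50 members, while 41.0% of background genes were higher, with a median of -0.75 beside -0.19 for all genes. Past 2-fold lower were 15 members (background 18.5%), and none was past 2-fold higher (background 13.5%). The share of lower members was above the background with averaged replicates, but near it without CHLA 06 replicate 1 or without CHLA 04 replicate 2. Both libraries of CHLA 04 were above both of CHLA 06 in 25 of 50 members, against 46.4% of background genes, so the count of separated genes is near that of any genes. The reverse held for none (background 30.3%). The gap between replicates of either line was wider than the gap between lines in 30 members, against 32.5% of background genes. Against CHLA 05, CHLA 06 was lower in 48 members, while 39.4% of background genes were higher, with a median of -0.71 beside -0.18 for all genes, 14 were past 2-fold lower (background 17.3%) and none higher (background 10.5%). The gap between the CHLA 06 replicates was wider than this one in 29 members, against 20.4% of background genes. Leaving out CHLA 06 replicate 1 gave 9 members past 2-fold, and leaving out replicate 2 gave 31, in each of these comparisons of CHLA 06, beside 16.6% and 18.5% of background genes against CHLA 05 and 18.2% and 19.4% against CHLA 04. The median against CHLA 04 was then -0.31 and -1.12, and that against CHLA 05 was -0.31 and -1.15, beside -0.17 to -0.20 for all genes. Without CHLA 04 replicate 1 the count against CHLA 04 was 25 (background 16.7%) with a median of -1.02, and without its replicate 2 the count was 11 (background 21.8%) with a median of -0.38.

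The replicates chosen also set whether replication or mitosis genes carried more of the difference of CHLA 06 from CHLA 04. With replicate 1 of both lines the median was -0.94 for replication and -0.59 for mitosis, and with replicate 2 of both it was -0.32 and -0.86. Past 2-fold lower were 11 replication and 7 mitosis genes with replicate 1 (background 22.4%), and 5 and 12 with replicate 2 (background 15.9%). This alternative was chosen after seeing the data. E2F1, POLA1, AURKB, POLE, GINS2, BUB1, PTTG1, CENPF, MCM2, BUB1B, MKI67 and TPX2 were past 2-fold lower in both of these pairings, from gene sums. PCNA and CCNE1 were higher in CHLA 06 in both. The replicate numbers only label libraries within a line, and pairings of unlike numbers were not counted. For several of these genes, CHLA 04 replicate 1 was less than 2-fold above CHLA 06 replicate 2 on the log2(TPM + 2) scale. MKI67, BUB1, CENPF, GINS2 and MCM2 were among them. The share of all genes past 2-fold in both pairings was not taken. The sum of fibroblast markers was also higher in CHLA 02 and CHLA 06, the lines with lower members, and most of it was COL1A1. DCN and LUM were higher there too, while PDGFRB was lower there and COL1A2 was highest in CHLA 05 at 7.12 TPM. The part of these markers in the differences of the members was not tested.

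**Figure D3:**
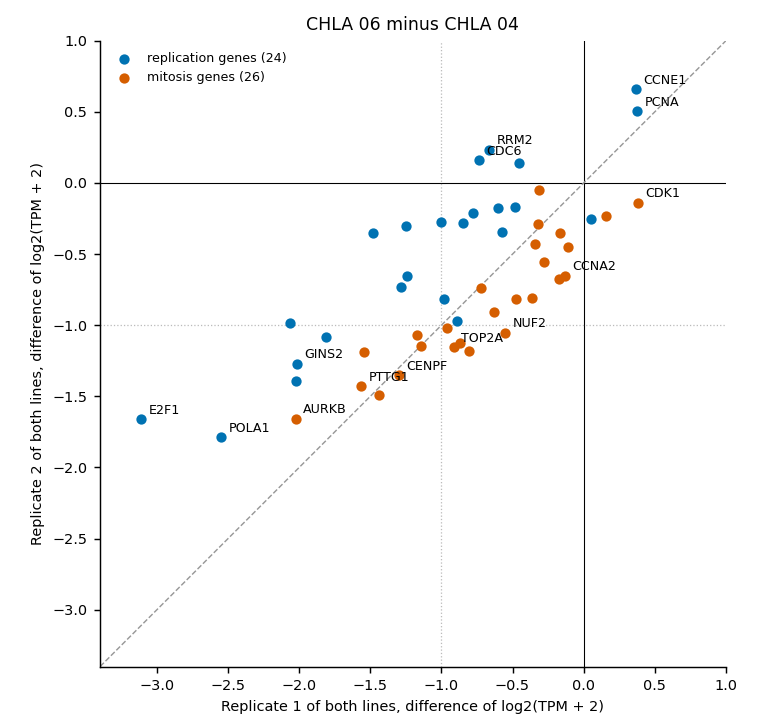
Difference of log2(TPM + 2) of CHLA 06 minus CHLA 04 for the 50 members, from replicate 1 of both lines (horizontal) and replicate 2 of both lines (vertical). The dashed line marks equality and dotted lines mark 2-fold lower. Replication genes lie mostly above the dashed line, with medians of -0.94 and -0.32, and mitosis genes mostly below it, with medians of -0.59 and -0.86.

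In the sentences on single genes that follow, a pair of values for CHLA 04 or CHLA 06 gives technical replicate 1 and then replicate 2. Origin licensing had 2 members, neither past 2-fold between CHLA 06 and CHLA 04 (background 18.5% lower and 13.5% higher). CDC6 (ENSG00000094804, chr17:40287633-40304657, plus strand) loads the helicase at origins and was at 16.1 TPM in CHLA 02, 22.4 and 32.6 TPM in CHLA 04, 37.0 TPM in CHLA 05, and 12.7 and 36.7 TPM in CHLA 06. CHLA 06 replicate 2 thus matched CHLA 05, while replicate 1 was the lowest library. CDT1 (ENSG00000167513, chr16:88803213-88809258, plus strand), the partner of CDC6, was at 22.5 TPM in CHLA 02, 44.8 and 43.5 TPM in CHLA 04, 29.7 TPM in CHLA 05, and 17.7 and 26.9 TPM in CHLA 06. Its 2 CHLA 04 libraries were the highest and differed little, and both lay above both CHLA 06 libraries.

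The replicative helicase had 9 members. Both CHLA 04 libraries were above both CHLA 06 libraries in 7 of them, all but MCM6 and CDC45 (background 46.4%). MCM7 (ENSG00000166508, chr7:100092728-100101940, minus strand), the most abundant subunit over the lines, was at 184 TPM in CHLA 02, 277 and 288 TPM in CHLA 04, 324 TPM in CHLA 05, and 161 and 249 TPM in CHLA 06. Its line means spanned only 0.80 on the log2 scale. GINS2 (ENSG00000131153, chr16:85676198-85690073, minus strand), a subunit of the GINS complex, had the widest range of the helicase with 1.83, at 12.8 TPM in CHLA 02, 35.1 and 43.4 TPM in CHLA 04, 44.6 TPM in CHLA 05, and 7.20 and 16.8 TPM in CHLA 06. CHLA 05 and both CHLA 04 libraries were above the other 3 for this gene. MCM2 was at 53.0 TPM in CHLA 02, 151 and 162 TPM in CHLA 04, 125 TPM in CHLA 05, and 41.5 and 75.5 TPM in CHLA 06, with the same separation. The remaining members had line ranges of 0.39 (MCM6) to 1.01 (MCM4), and the median difference between replicates was 0.23 in CHLA 04 and 0.88 in CHLA 06.

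Of the 5 polymerase and fork genes, POLA1 and POLE were past 2-fold lower in CHLA 06 than in CHLA 04 (background 18.5%), and PCNA was higher. POLA1 (ENSG00000101868, chrX:24693919-24996986, plus strand), the catalytic subunit of DNA polymerase alpha that starts each strand, was at 56.5 TPM in CHLA 02, 130.1 and 130.1 TPM in CHLA 04, 83.9 TPM in CHLA 05, and 20.6 and 36.3 TPM in CHLA 06. The CHLA 04 libraries were nearly equal, with a mean of 130.1 ± 0.05 TPM (SD, n = 2 technical replicates), and CHLA 06 was 2.17 lower on the log2 scale, 2.55 with replicate 1 of both lines and 1.79 with replicate 2. POLE, the leading strand polymerase, was at 58.0 TPM in CHLA 02, 160.0 and 179 TPM in CHLA 04, 136 TPM in CHLA 05, and 37.8 and 66.9 TPM in CHLA 06. PCNA (ENSG00000132646, chr20:5114953-5126626, minus strand), the sliding clamp, ran against the set, at 173 TPM in CHLA 02, 164 and 273 TPM in CHLA 04, 329.9 TPM in CHLA 05, and 214 and 389 TPM in CHLA 06. It was 0.44 higher in CHLA 06 than in CHLA 04 and was highest in the library of CHLA 06 replicate 2, yet the libraries of these lines overlapped. FEN1 (ENSG00000168496, chr11:61792637-61797244, plus strand) was the lowest member, at 5.01 TPM in CHLA 02, 6.89 and 12.0 TPM in CHLA 04, 12.2 TPM in CHLA 05, and 2.93 and 9.48 TPM in CHLA 06, from 52 to 172 reads per library.

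Nucleotide supply was the replication group with the smallest gap between CHLA 06 and CHLA 04, a median of -0.19 over 4 genes. None was past 2-fold (background 18.5% lower and 13.5% higher). TYMS (ENSG00000176890, chr18:657604-673578, plus strand) makes thymidylate and was at 205 TPM in CHLA 02, 241 and 433 TPM in CHLA 04, 505 TPM in CHLA 05, and 250.4 and 363 TPM in CHLA 06. CHLA 05 was 1.29 above CHLA 02, the widest pair. RRM2 was at 203 TPM in CHLA 02, 207 and 340.2 TPM in CHLA 04, 229 TPM in CHLA 05, and 129.9 and 400.5 TPM in CHLA 06, where the highest and the lowest of all 6 libraries were the CHLA 06 replicates. RRM1 was the only member of this group with CHLA 04 above CHLA 06 in every library (background 46.4%). TK1, thymidine kinase, had line means within 0.92.

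E2F and cyclin E genes act before S phase. E2F1 (ENSG00000101412, chr20:33675683-33686404, minus strand) had the widest range of all members, 2.49 between CHLA 05 and CHLA 06, at 21.5 TPM in CHLA 02, 102 and 74.6 TPM in CHLA 04, 94.0 TPM in CHLA 05, and 10.1 and 22.2 TPM in CHLA 06. The libraries of CHLA 04 and CHLA 05 were all above those of CHLA 02 and CHLA 06, with a mean of 88.4 ± 19.6 TPM in CHLA 04 and of 16.1 ± 8.59 TPM in CHLA 06 (SD, n = 2 technical replicates). The replicate gaps, of opposite sign in CHLA 04 and CHLA 06, were both narrower than the gap between these lines. E2F2 followed with CHLA 06 lower than CHLA 04 by 1.52, while the cyclin E genes CCNE1 and CCNE2 differed from CHLA 04 by 0.51 and -0.46. CCNE1 was at 12.3 TPM in CHLA 02, 11.2 and 16.7 TPM in CHLA 04, 19.7 TPM in CHLA 05, and 15.0 and 27.6 TPM in CHLA 06, the only member whose highest line was CHLA 06.

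Mitotic entry genes were those in which the replicates of CHLA 04 differed most, with a median of 0.93 over 7 genes. None was past 2-fold between CHLA 06 and CHLA 04 (background 18.5% lower and 13.5% higher). PLK1 alone had CHLA 04 above CHLA 06 in every library (background 46.4%). CCNB1 (ENSG00000134057, chr5:69167010-69178245, plus strand), cyclin B1, which activates CDK1, was at 113 TPM in CHLA 02, 123 and 235 TPM in CHLA 04, 264 TPM in CHLA 05, and 95.02 and 133 TPM in CHLA 06. CHLA 05 and CHLA 04 replicate 2 were the highest, and CHLA 04 replicate 1 was below CHLA 06 replicate 2. CDK1 itself was at 121 TPM in CHLA 02, 85.2 and 218 TPM in CHLA 04, 171 TPM in CHLA 05, and 112 and 197 TPM in CHLA 06, and it was lowest in CHLA 04 replicate 1. CCNA2, CCNB2, CDC25C and AURKA had line ranges of 0.70 to 1.09.

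Of the spindle checkpoint and anaphase genes, 3 of 7 were past 2-fold lower in CHLA 06 than in CHLA 04 (background 18.5%). They were PTTG1, BUB1 and BUB1B. PTTG1 (ENSG00000164611, chr5:160421822-160428744, plus strand), securin, which holds separase in check until anaphase, was at 125 TPM in CHLA 02, 218 and 231 TPM in CHLA 04, 204 TPM in CHLA 05, and 72.5 and 84.5 TPM in CHLA 06. It had the smallest replicate gap in CHLA 06 (0.22) and a small one in CHLA 04 (0.08), so its line difference of -1.496 stood well outside both. With its most abundant transcript alone that difference was 0.46 in size and no longer past 2-fold. UBE2C (ENSG00000175063, chr20:45812576-45816957, plus strand), the ubiquitin conjugating enzyme of the anaphase promoting complex, was at 147 TPM in CHLA 02, 138 and 274 TPM in CHLA 04, 205 TPM in CHLA 05, and 113 and 186 TPM in CHLA 06. Its line means spanned only 0.49, less than its replicate gaps of 0.98 and 0.71. BUB1, a checkpoint kinase, was at 74.1 TPM in CHLA 02, 126 and 217 TPM in CHLA 04, 152 TPM in CHLA 05, and 45.3 and 75.9 TPM in CHLA 06, with both CHLA 06 libraries near or below CHLA 02. TTK and MAD2L1 differed by -0.04 and -0.28 between CHLA 06 and CHLA 04.

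Kinetochore and centromere genes were higher in CHLA 05 than in CHLA 06 by a median of 1.02 in size, with 3 of 5 past 2-fold (background 17.3%). CENPF (ENSG00000117724, chr1:214603195-214664588, plus strand) was at 88.0 TPM in CHLA 02, 179 and 264 TPM in CHLA 04, 270.2 TPM in CHLA 05, and 71.9 and 102 TPM in CHLA 06. Both CHLA 04 libraries and CHLA 05 were above the other 3. NUF2 (ENSG00000143228, chr1:163266576-163355764, plus strand) links kinetochores to microtubules and was at 33.5 TPM in CHLA 02, 37.4 and 76.4 TPM in CHLA 04, 99.2 TPM in CHLA 05, and 24.8 and 35.8 TPM in CHLA 06. CHLA 05 was the highest here, and CHLA 04 replicate 1 was close to CHLA 02 and to CHLA 06 replicate 2. NDC80, its partner in the same complex, spanned only 0.71 between lines.

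Spindle and chromosome mechanics had the lowest median for CHLA 06 against CHLA 04, -1.04 over 7 genes, with 4 past 2-fold lower (background 18.5%). That position rested on averaged replicates, since with replicate 1 of both lines its median of -0.91 was above those of the E2F and cyclin E genes (-1.32), the helicase (-1.25) and origin licensing (-0.99). AURKB (ENSG00000178999, chr17:8204733-8210600, minus strand), the kinase of the chromosomal passenger complex, was at 36.4 TPM in CHLA 02, 109 and 156 TPM in CHLA 04, 100.05 TPM in CHLA 05, and 25.3 and 48.1 TPM in CHLA 06. The lines split as for E2F1, with CHLA 04 and CHLA 05 above CHLA 02 and CHLA 06 in every library. TOP2A (ENSG00000131747, chr17:40388516-40417950, minus strand), which untangles chromosomes, was at 198 TPM in CHLA 02, 271 and 479 TPM in CHLA 04, 465 TPM in CHLA 05, and 143 and 214 TPM in CHLA 06. MKI67, the gene of the Ki-67 proliferation antigen, was at 133 TPM in CHLA 02, 238 and 355 TPM in CHLA 04, 199 TPM in CHLA 05, and 106 and 159 TPM in CHLA 06. For both genes CHLA 04 replicate 1 was nearer in TPM to CHLA 06 replicate 2 than to CHLA 04 replicate 2. KIF11, KIF20A, KIF23 and TPX2 had line ranges of 0.77 to 1.12.

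**Figure D4:**
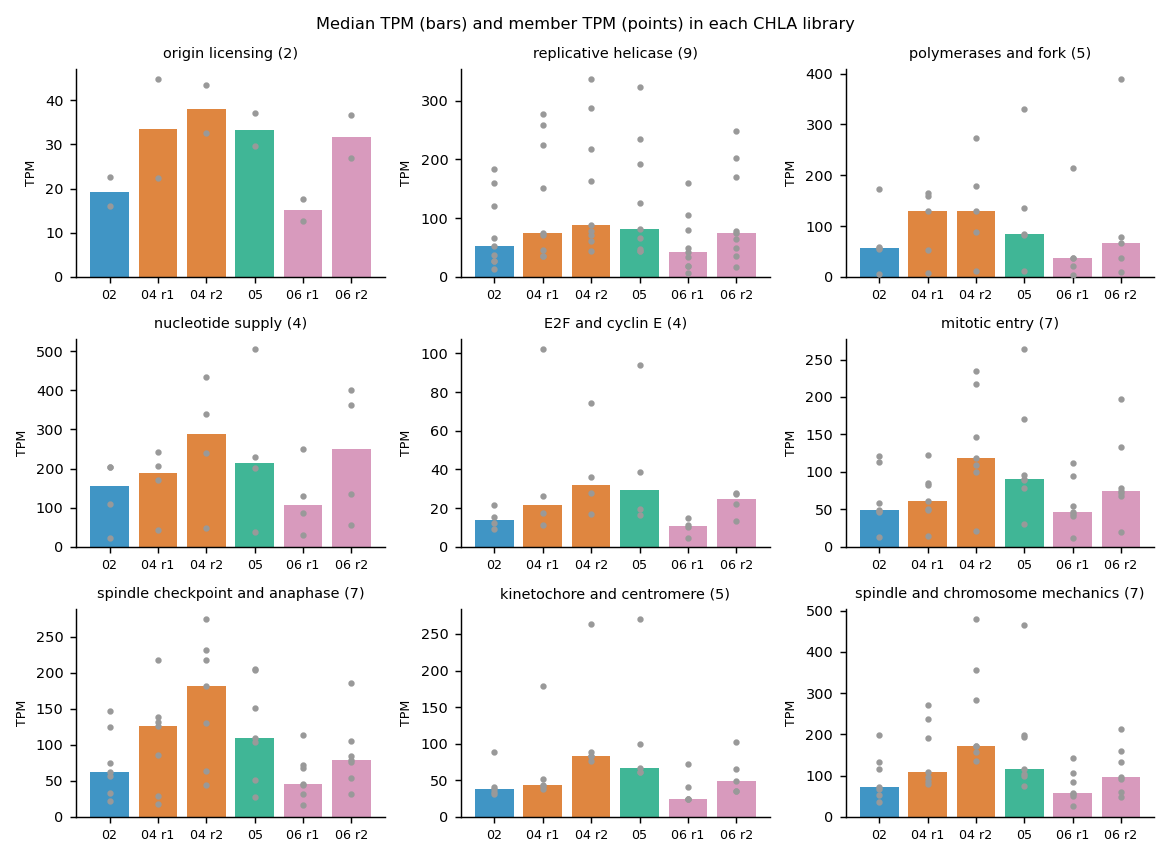
TPM of the members by role in each library, where r1 and r2 are technical replicates, bars are medians over the genes of a role (number in parentheses) and points are the genes. In all 9 roles the bar of CHLA 06 r2 is above that of CHLA 06 r1 and the bar of CHLA 04 r2 is at or above that of CHLA 04 r1.

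At the level of transcripts, the members had 385 transcripts in the tables, and 378 had a value above 0 in some library. The most abundant transcript was the same in all 6 libraries for 38 of 50 members, and it held over 50% of the TPM of the gene in every library for 28. E2F1 and KIF11 had 1 transcript each, and the top transcript of TOP2A held 97.7% to 99.0%. For PTTG1 the share of the top transcript ran from 28.8% to 71.4%, the widest span of the set, and for MCM7 it ran from 16.3% to 25.3%. Reads shared by transcripts of a gene are divided between them by the software, so gene sums were used for all comparisons.

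Exons of 17 members overlapped exons of another gene. On the opposite strand, the largest overlaps were CCNE2 with INTS8 (37.0% of the exon bases of the member), TYMS with ENOSF1 (18.8%), CDC25C with FAM53C (9.62%), CCNA2 with EXOSC9 (9.08%) and MCM7 with AP4M1 (8.94%). On the same strand, BUB1B overlapped PAK6 (10.2%), CENPA overlapped SLC35F6 (6.96%) and FEN1 overlapped FADS2 (1.98%). The kit kept the strand of the RNA, but whether counting used it is not given in the sources used here, so values of these members may include reads of their neighbours. PTTG2, a near copy of PTTG1, was at 0 TPM in all 6 libraries.

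Other genes of the same pathways, listed with earlier results of these data known, were lower in CHLA 06 than in CHLA 04 and CHLA 05 by their medians. Of 42 other replication genes, 9 were past 2-fold lower in CHLA 06 than in CHLA 04 and 8 lower than in CHLA 05, counts near the background of 18.5% and 17.3%. Their medians were -0.63 and -0.69, beside -0.19 and -0.18 for all genes. Of 50 other mitosis genes, 20 and 21 were past 2-fold lower, with medians of -0.86 and -0.88. Against CHLA 02, CHLA 04 had 13 of the other replication genes and 20 of the other mitosis genes past 2-fold higher (background 8.46%). The replicates of CHLA 06 differed past 2-fold in 13 of the other replication genes and 5 of the other mitosis genes (background 0.796%), and those of CHLA 04 in 2 and 15 (background 1.33%), each higher in replicate 2. By these counts mitosis genes led in the replicates of CHLA 04 and replication genes in those of CHLA 06. The median replicate differences of other replication and other mitosis genes were 0.52 and 0.71 in CHLA 04. In CHLA 06 they were close, at 0.73 and 0.67. Since the lists were written with these data known, they are no separate evidence.

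GMNN, geminin, the inhibitor of CDT1, had the widest range of the other replication genes at 46.4 TPM in CHLA 02, 68.5 and 157 TPM in CHLA 04, 177 TPM in CHLA 05, and 21.8 and 54.4 TPM in CHLA 06. TIMELESS and LIG1, the DNA ligase of Okazaki fragments, followed with ranges of 1.54 and 1.498, and for both all libraries of CHLA 04 and CHLA 05 were above those of CHLA 02 and CHLA 06. KIF15, a mitotic kinesin, had the widest range of the other mitosis genes at 31.2 TPM in CHLA 02, 78.9 and 117 TPM in CHLA 04, 69.8 TPM in CHLA 05, and 15.1 and 25.4 TPM in CHLA 06. CDC25B, a phosphatase that activates CDK1, was set apart by CHLA 05, at 135 TPM in CHLA 02, 117 and 132 TPM in CHLA 04, 330.4 TPM in CHLA 05, and 85.0 and 85.5 TPM in CHLA 06. ESPL1, separase, had a range of 1.89. Of 18 regulators of cell cycle transcription, 5 were past 2-fold lower in CHLA 06 than in CHLA 04 (background 18.5%) and 6 lower than in CHLA 05 (background 17.3%). TFDP2, a dimerization partner of E2F proteins, had the widest range of all, 3.97 on the log2 scale, at 603 TPM in CHLA 02, 1409 and 954 TPM in CHLA 04, 669.6 TPM in CHLA 05, and 79.7 and 65.5 TPM in CHLA 06. Its CHLA 06 libraries were both far below every other library, CHLA 02 included, and they did not share the replicate gap of the members. E2F7, a repressor that closes the E2F program, was at 9.999 TPM in CHLA 02, 30.8 and 49.8 TPM in CHLA 04, 62.2 TPM in CHLA 05, and 9.17 and 18.1 TPM in CHLA 06. MYBL2, which encodes B-MYB, was at 26.95 TPM in CHLA 02, 83.9 and 99.0 TPM in CHLA 04, 82.01 TPM in CHLA 05, and 21.8 and 48.2 TPM in CHLA 06.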

How the data were processed

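RNA was sequenced from 4 AT/RT cell lines in 6 libraries (stranded total RNA kit, paired reads of 125 bases). The authors trimmed reads with Trimmomatic, checked them with FastQC and counted them on Ensembl release 82 transcripts (GRCh38) with the RNA-Seq tool of CLCbio Genomics Workbench, whose version is not given in the sources used here. The submitters' processing notes also name CASAVA 1.8.2. The values the authors deposited are TPM per transcript, scaled to the same total in each library.

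From these, gene TPM was the sum over transcripts, and reads were recovered from TPM multiplied by transcript length, which gave whole reads for 99.2% to 100.0% of values with a tolerance of 0.02 reads. Technical replicates were averaged as log2(TPM + 2), with a pseudocount of 2. Lines had 1 biological sample each, so no test was made and no p-value is given, and a log2 difference of at least 1 was counted. Background genes had a mean of at least 1 TPM over the lines. Wilson intervals cover counting error only. Genes described with full values were the member of highest mean and the member of widest range between lines in each role, the lowest member, and the 3 genes of widest range in each further list. MCM2, POLE, RRM2, CCNE1, CDK1, BUB1, MKI67 and the genes set beside the replicate differences were added after their values were seen. The members and gene lists were chosen with earlier results of these data known. Promoter windows came from RefSeq (GRCh38.p14). Scripts were tested on simulated data. Python 3.11.15, numpy 2.4.6, pandas 2.3.3, statsmodels 0.14.6 and matplotlib 3.10.9 were used.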

Additional observations from a re-analysis of the deposited data

How the results depend on the processing

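The design had 1 biological sample per line, so all values describe these libraries only. No paired analysis was possible because no test was made and the replicate numbers name technical replicates within a line. Replicates left out moved the medians most, from -0.75 to between -1.12 and -0.31 for CHLA 06 against CHLA 04, from -0.71 to between -1.15 and -0.31 for CHLA 06 against CHLA 05, and from 0.82 to between 0.46 and 1.09 for CHLA 04 against CHLA 02. The sign of the median for CHLA 06 against CHLA 02 depended on the library, from -0.35 without replicate 2 to 0.41 without replicate 1, against 0.03 with both. A pseudocount of 0.1 or of 1 gave 1 member past 2-fold between CHLA 06 and CHLA 02 in place of 0. The most abundant transcript alone gave 2 for that pair and 1 for CHLA 04 against CHLA 05. The higher of the technical replicates gave 4 for CHLA 06 against CHLA 02, 9 for CHLA 06 against CHLA 05 and 31 for CHLA 04 against CHLA 02. Leaving out each replicate in turn gave 1 to 4 members past 2-fold for CHLA 06 against CHLA 02, 9 to 31 for CHLA 06 against CHLA 04, 9 to 31 for CHLA 06 against CHLA 05, 9 to 31 for CHLA 04 against CHLA 02 and 0 to 4 for CHLA 04 against CHLA 05. For CHLA 06 against CHLA 04 the count was 25 without CHLA 04 replicate 1, 9 without CHLA 06 replicate 1 and 31 without CHLA 06 replicate 2. Median-ratio scaling and quantile normalization each gave 1 member with CHLA 06 above CHLA 04 in every library in place of 0. They also moved the medians of the 4 comparisons of the higher with the lower lines toward 0, for example from -0.75 to -0.56 for CHLA 06 against CHLA 04. With either scaling the members past 2-fold became 11 in place of 15 for that pair. For CHLA 06 against CHLA 05 they became 11 in place of 14. For PTTG1, CHLA 04 minus CHLA 06 was 1.496 and became 1.30, 1.25 and 0.46 with median-ratio scaling, quantile normalization and the most abundant transcript. With only replicate 1 or only replicate 2 of both lines, CDT1 gave 1.24 and 0.66 in place of 0.95. The cause of these changes was not tested. Depth limited FEN1 most, with 52 reads in its thinnest library.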
